A study of Mus musculus with 2 samples.

Results

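The Krüppel-like factor family was examined in mouse embryonic stem cells with and without a hairpin against Dab2. The members are 10 genes, Klf2, Klf3, Klf4, Klf5, Klf6, Klf7, Klf9, Klf10, Klf13 and Klf15. They were read on every probe set that the array annotation assigns to 1 of these genes alone, which gave 27 probe sets of the 20380 that name a single gene (10 of 12393 genes). Klf2, Klf4 and Klf5, the members that act in stem cell self-renewal, are compared with the other 7. Both groups are clones of E14tg2a, an embryonic stem cell line that grows without feeder cells. The shDAB2 group is clone 4 of cells stably transfected with the plasmid shDAB2-285, which encodes a short hairpin RNA against Dab2. The vector group is clone 9 of cells stably transfected with the control plasmid, named ES-V9. Both grew in GMEM with 10% fetal bovine serum and LIF, the cytokine leukaemia inhibitory factor, at 1000 U/ml. Each group is 1 clone on 1 Affymetrix mouse 430A array, so nothing measures the spread between cultures or between clones, and every comparison below is a description of 2 arrays without a test across samples. A clone difference and a hairpin effect cannot be told apart.

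Krüppel-like factors are transcription factors with a conserved zinc finger domain at the carboxyl end, which binds GC-rich and CACCC sequences in promoters and enhancers. The amino-terminal parts differ and recruit different partners. Klf2, Klf4, Klf5, Klf6 and Klf7 are mainly activators that bind acetyltransferases. Klf3 recruits the corepressor CtBP, and Klf9, Klf10 and Klf13 recruit the corepressor Sin3. In mouse embryonic stem cells Klf2, Klf4 and Klf5 share many binding sites with Nanog and its partners and can partly replace each other. LIF, through STAT3, is known to sustain Klf4 and Klf5, while FGF signalling through ERK is known to lower Klf2.

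Values are log2 expression values, and a difference is shDAB2 minus vector. Over 22626 probe sets the arrays correlated at r = 0.99. Dab2 was dim, at 6.64 in vector cells and 6.33 in shDAB2 cells on its brightest probe set, a difference of -0.31. The other Dab2 probe sets lay below the floor and differed by -0.051 and -0.011, so the lower reading of the hairpin's target rests on 1 of 3 probe sets. The floor, the median of all probe-set values, was 6.62, and 22 of the 27 Klf probe sets reached it on at least 1 array. The following measures describe how unusual a difference is on these arrays: the share of probe sets past 1.5-fold, and the SD of the differences of the 500 probe sets nearest in mean signal. Neither is an error between samples. Levels of different probe sets are not compared, because each has its own probe affinity.

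Klf genes were mostly lower in the shDAB2 clone, with the largest difference on 1 of the 2 Klf5 probe sets and Klf4 on the opposite side. The second Klf5 probe set, at -0.33, differed less than Klf2, Klf10 and 1 Klf3 probe set. Of the 27 probe sets 19 were lower and 8 higher, where 46.7% of all single-gene probe sets were lower. Above the floor 17 of 22 were lower, against 50.2%. At least 1.5-fold lower were 2 of the 27, against 0.819% of all probe sets, and 0 were 1.5-fold higher, against 0.265%. At least 2-fold lower was 1 of the 27, against 0.0932%. By gene, on the brightest probe set, 8 of 10 were lower, where 49.3% of genes above the floor were lower. The 1 gene at least 2-fold lower was Klf5, against 0.179% of genes. Several probe sets of a gene read the same transcript, so the 27 are not independent readings.

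**Figure D1:**
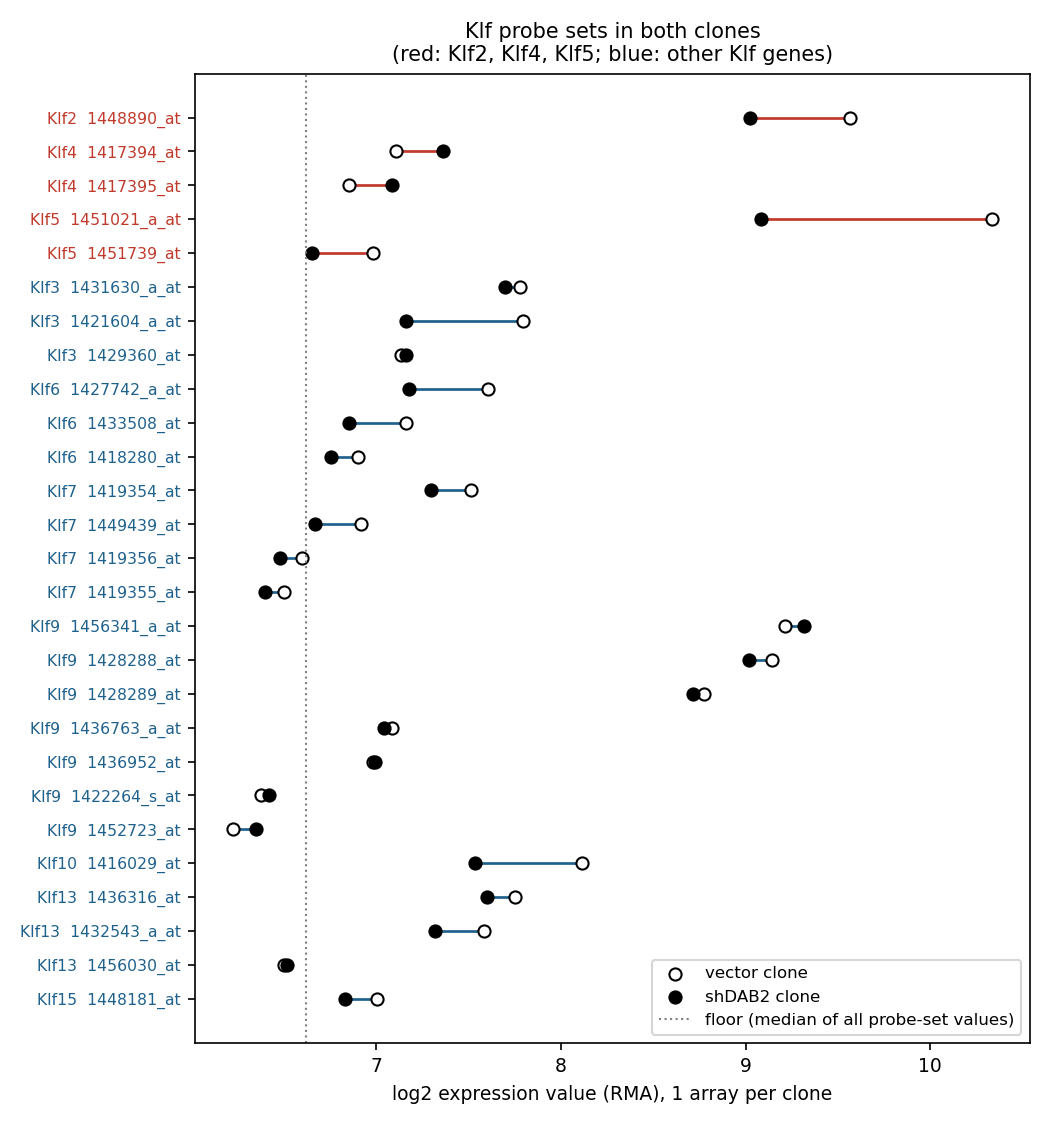
Log2 expression values of the 27 Klf probe sets in the vector clone (open circles) and the shDAB2 clone (filled circles), 1 array each; the dotted line is the floor of 6.62. The longest line is that of the brighter Klf5 probe set, from 10.33 to 9.08, and both Klf4 probe sets run the other way.

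Klf5, which in epithelia drives proliferation and in the early embryo supports both the epiblast and the trophectoderm, had the largest difference of the family on its brighter probe set. That probe set, 1451021_a_at, read 10.33 in vector cells and 9.08 in shDAB2 cells. That is a difference of -1.25, or 2.38-fold lower, and 4.49 times the SD of 0.28 among probe sets of like signal. It ranked 10 from the lowest among the 20380 differences. The second probe set, 1451739_at, read 6.98 in vector cells and 6.65 in shDAB2 cells, a difference of -0.33 or 1.26-fold lower. Both probe sets were lower in the shDAB2 clone, and both lay among the lowest 5% of probe sets of like signal. They differ in size, and the dimmer one ended just above the floor of 6.62 in the shDAB2 clone. The size of the Klf5 difference therefore rests on 1 probe set.

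Klf2, known for quiescence of endothelium and T cells and a factor of the naive state, has 1 probe set. It read 9.56 in vector cells and 9.02 in shDAB2 cells, a difference of -0.54 or 1.45-fold lower, just short of the 1.5-fold limit. Klf2 lay 1.75 SD below 0, and 4.0% of probe sets of like signal were lower still. With 1 probe set there is no second reading of this gene.

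Klf4, a classical reprogramming factor, was the only member with every probe set higher in the shDAB2 clone, where 28.4% of genes with 2 or more probe sets were higher on each. Its probe sets read 7.11 and 6.85 in vector cells and 7.36 and 7.09 in shDAB2 cells. The differences were 0.26 and 0.24, or 1.19-fold and 1.18-fold higher. Both probe sets were designed on the same source sequence, so they are not fully separate readings. Among probe sets of like signal 92.4% and 96.6% had a smaller difference. The self-renewal members thus stood on both sides of 0, with Klf5 and Klf2 lower and Klf4 higher. A bulk array cannot tell fewer cells that express a gene from less RNA per cell.

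Promoter sequences of 4 members that differed in direction are shown for reference, each the 250 bases before the gene start in RefSeq (build GRCm38.p6). Klf2 stands for a lower, Klf4 for a higher, Klf6 for a member lower on all 3 probe sets and Klf9 for a nearly level member. Capitals mark the MEF2 motif in Klf2, GGGCGG on either strand (the GC box that Sp and Klf proteins bind) in Klf4, CCAAT on either strand in Klf6, and TTCNNNGAA (the STAT motif) in Klf9.
Klf2, chr8:72318812-72319061, plus strand: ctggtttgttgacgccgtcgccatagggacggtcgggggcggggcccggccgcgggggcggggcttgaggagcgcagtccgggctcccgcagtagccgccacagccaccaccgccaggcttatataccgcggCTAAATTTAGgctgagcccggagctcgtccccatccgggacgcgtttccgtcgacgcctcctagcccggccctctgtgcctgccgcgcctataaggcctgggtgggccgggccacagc
Klf4, chr4:55532476-55532725, minus strand: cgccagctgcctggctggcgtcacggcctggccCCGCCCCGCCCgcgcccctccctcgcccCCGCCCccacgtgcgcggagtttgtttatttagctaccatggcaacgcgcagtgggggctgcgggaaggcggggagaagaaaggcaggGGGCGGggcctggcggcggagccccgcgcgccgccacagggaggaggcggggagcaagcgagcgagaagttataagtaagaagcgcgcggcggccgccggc
Klf6, chr13:5861239-5861488, plus strand: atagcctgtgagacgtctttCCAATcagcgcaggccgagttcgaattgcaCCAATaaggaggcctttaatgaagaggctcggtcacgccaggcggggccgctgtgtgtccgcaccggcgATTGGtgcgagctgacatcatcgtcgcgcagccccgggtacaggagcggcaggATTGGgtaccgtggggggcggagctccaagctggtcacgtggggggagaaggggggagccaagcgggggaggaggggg
Klf9, chr19:23140976-23141225, plus strand: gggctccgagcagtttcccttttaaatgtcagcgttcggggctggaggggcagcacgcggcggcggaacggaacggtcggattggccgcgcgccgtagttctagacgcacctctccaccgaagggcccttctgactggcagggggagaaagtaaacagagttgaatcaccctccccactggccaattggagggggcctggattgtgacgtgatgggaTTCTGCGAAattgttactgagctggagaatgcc

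The promoter table matched 8 of the 10 genes, all but Klf5 and Klf10. Shares are given beside those over all 32851 promoter windows of the same length, both strands searched. GGGCGG was present in 7 of the 8 Klf promoters and in 32.7% of all windows; Klf9 was the one without it. The 8 windows were GC-rich, at 59.2% to 78.4% against a median of 52.4%; the part of base composition in the match counts was not tested. CACCC was in 6 of the 8, against 52% of all windows, and CCAAT in 4 of the 8, against 33.8%. Matches can overlap, as 2 of the GC boxes of Klf4 and 2 of the CCAAT boxes of Klf9 do. The MEF2 motif was in the Klf2 window alone, 118 to 109 bases before the start, and in 2.92% of all windows; MEF2 proteins are known to induce Klf2 in endothelium. TTCNNNGAA was in the Klf9 window, against 7.02% of all windows. CACGTG, the E-box, was in those of Klf4, Klf6 and Klf15, against 6.02%. TATAAA, TGACGTCA (the cyclic AMP response element) and the CArG motif were in 0 of the 8, against 12.4%, 1.55% and 1.47%. A match is a string of letters in this window and says nothing of binding in these clones.

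The other activators, Klf6 and Klf7, were lower on all of their probe sets, by small amounts. Klf6, an early response gene of many cell types, read 7.60, 7.16 and 6.90 in vector cells and 7.18, 6.86 and 6.75 in shDAB2 cells. The differences were -0.42, -0.31 and -0.15, and the first 2 lay among the lowest 5% of probe sets of like signal. All 3 readings of Klf6 pointed the same way, and they come from 3 source sequences. Klf7, known for axon growth in neurons, read 7.51, 6.92, 6.60 and 6.50 in vector cells and 7.29, 6.67, 6.48 and 6.40 in shDAB2 cells. Its differences were -0.22, -0.25, -0.12 and -0.11, of which the second lay among the lowest 5%. The 4 probe sets of Klf7 share 1 source sequence, and the dimmer 2 lay below the floor. For comparison, 19.9% of genes with 3 or more probe sets were lower on every one, and 14.1% of genes with 4 or more.

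Klf3, a repressor known from red cell and fat cell development, gave readings that did not match. Its probe set 1421604_a_at read 7.79 in vector cells and 7.16 in shDAB2 cells, a difference of -0.63 or 1.55-fold lower, 3.10 times the SD among probe sets of like signal. Probe set 1431630_a_at read 7.78 and 7.70 in the same order, a difference of -0.08. Probe set 1429360_at read 7.14 and 7.16, a difference of 0.03. Only 1 of the 3 readings of Klf3 thus showed a difference past 1.5-fold, and they come from 3 source sequences. The table at hand does not say which transcripts of Klf3 each probe set covers.

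Among the members that recruit Sin3, Klf10 was lower and Klf9 close to level. Klf10, first described as an early gene of the TGF-beta response, has 1 probe set, which read 8.12 in vector cells and 7.54 in shDAB2 cells. The difference of -0.58 is 1.49-fold lower, just short of the 1.5-fold limit, and 2.29 SD below 0. Klf10 passed that limit after cyclic loess and after centring, at -0.59 in both. Klf13, known as a regulator of the chemokine gene Ccl5 in T cells, read 7.75, 7.58 and 6.50 in vector cells and 7.60, 7.32 and 6.52 in shDAB2 cells. Its differences were -0.15, -0.27 and 0.02, the last on a probe set below the floor. Klf13 was therefore lower on both readings above the floor, each within 1.35 SD of like probe sets.

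Klf9, which is induced by glucocorticoid and thyroid hormone in many tissues, has the most probe sets of the family, 7. The brightest 3 read 9.21, 9.14 and 8.78 in vector cells and 9.32, 9.02 and 8.72 in shDAB2 cells. Their differences were 0.10, -0.12 and -0.06. The other 4 differed by -0.05, 0.01, 0.04 and 0.12. Of the 7 readings 3 were lower and 4 higher, and the differences spanned 0.25 in all, so Klf9 showed no direction. Its brightest 3 probe sets lay well above the floor on both arrays. Klf15, known for control of amino acid and glucose metabolism in liver and muscle, has 1 probe set and read 7.01 in vector cells and 6.83 in shDAB2 cells. Its difference of -0.17 lay 1.14 SD below 0.

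**Figure D2:**
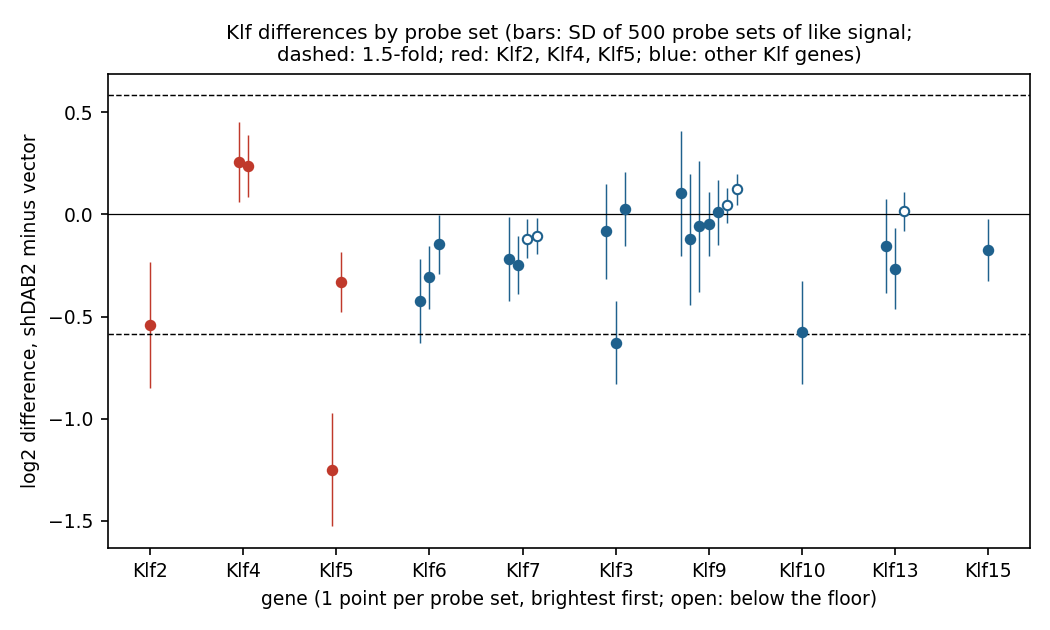
Log2 difference (shDAB2 minus vector) of every Klf probe set by gene, brightest first, with the SD of 500 probe sets of like signal as bars; open points lie below the floor and dashed lines mark 1.5-fold. The brighter Klf5 probe set at -1.25 and 1 Klf3 probe set at -0.63 lie past the lower line, and the 7 probe sets of Klf9 lie around 0.

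The self-renewal members had no shared direction, and the low end of their range rests on 1 Klf5 probe set. Their next lowest reading was Klf2 at -0.54, against -0.63 as the lowest of the other members. Over the 5 probe sets of Klf2, Klf4 and Klf5 the median difference was -0.33, with a range from -1.25 to 0.26. Over the 22 probe sets of the other 7 genes it was -0.12, with a range from -0.63 to 0.12. The median of all single-gene probe sets was 0.01. On brightest probe sets the medians were -0.54 for the 3 self-renewal genes and -0.17 for the 7 others, against 0.00 for all genes above the floor. At least 1.5-fold lower were 1 of 5 self-renewal probe sets (Klf5) and 1 of 22 others (Klf3). Of all single-gene probe sets 0.819% were, and with 1 probe set in each group these counts do not set the groups apart. The gap between the groups is not stable: it was -0.21 over all probe sets and 0.076 once probe sets with IDs of the types _s_at, _x_at and _a_at were left out, which drops the brighter Klf5 reading. The self-renewal median then stood at -0.046.

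By cofactor class the 12 activator probe sets had a median of -0.23, with 10 lower, where 46.7% of all single-gene probe sets were lower. Of these 12, 4 belong to Klf7, all from 1 source sequence, and 3 to Klf6. The classes are thus weighted by the number of probe sets per gene. The 11 probe sets of the Sin3 class had a median of -0.05, with 6 lower, and 7 of these 11 belong to Klf9. The 3 probe sets of Klf3, the CtBP member, had a median of -0.08. Set against probe sets of like signal, 8 Klf probe sets of 6 genes lay among the lowest 5%, where 5.26% of all probe sets did. These were probe sets of Klf2, Klf3, Klf5, Klf6, Klf7 and Klf10. Among the highest 5% was 1 probe set, of Klf4, where 5.08% of all did. Klf9, Klf13 and Klf15 had none in either tail.

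**Figure D3:**
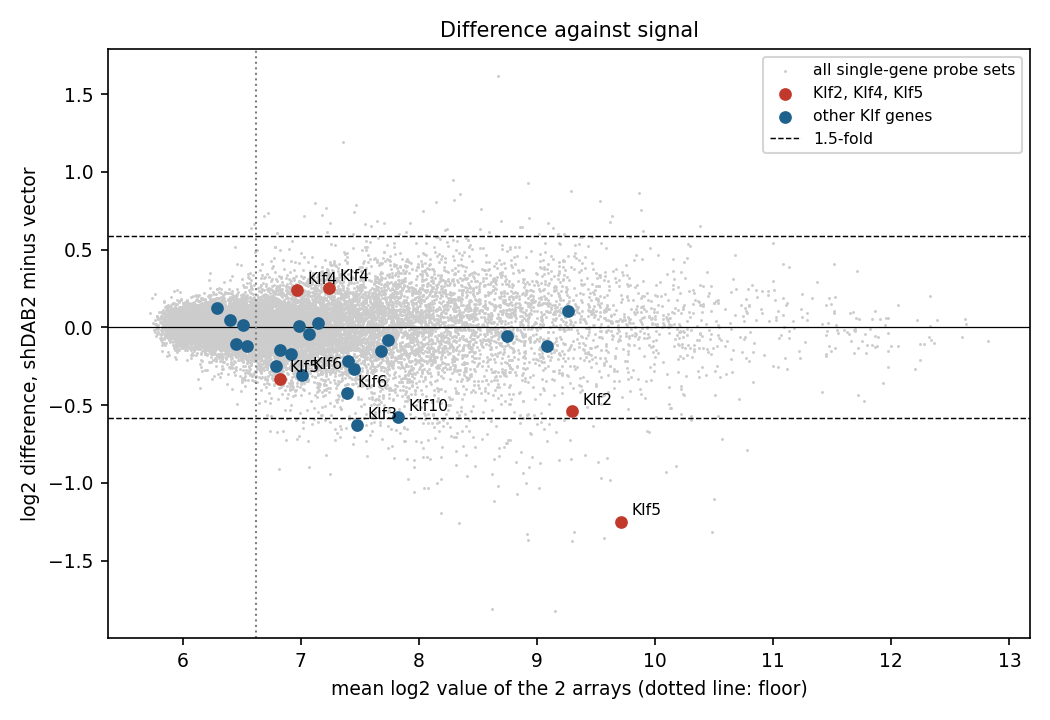
Log2 difference (shDAB2 minus vector) against the mean log2 value of both arrays for all single-gene probe sets (grey) with the Klf probe sets in colour; dashed lines mark 1.5-fold and the dotted line the floor. Differences spread least at the dim end, and the Klf5 probe set at -1.25 stands among the lowest of its signal range.

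Readings within a gene are the only repeat measurement on these arrays. Of the 7 Klf genes with several probe sets, 4 (Klf4, Klf5, Klf6 and Klf7) had 1 sign throughout, where 54.7% of 4956 such genes did. The 2 readings of Klf5 lay 0.92 apart, further than in 99.9% of the 3057 genes with 2 probe sets. Those of Klf4 lay 0.02 apart, closer than most, since 13.5% of such genes had a smaller range. The 3 readings of Klf3 spanned 0.65, more than in 99.3% of the 1191 genes with 3 probe sets. Klf6 spanned 0.28 (87.2%) and Klf13 0.28 (87.9%), while the 4 readings of Klf7 spanned 0.14 (31.5% of 447 genes). Klf5 and Klf3 were thus among the least even genes with as many probe sets, and Klf4 was more even than most. The genes compared were not matched for signal, and both Klf4 probe sets come from 1 source sequence.

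**Figure D4:**
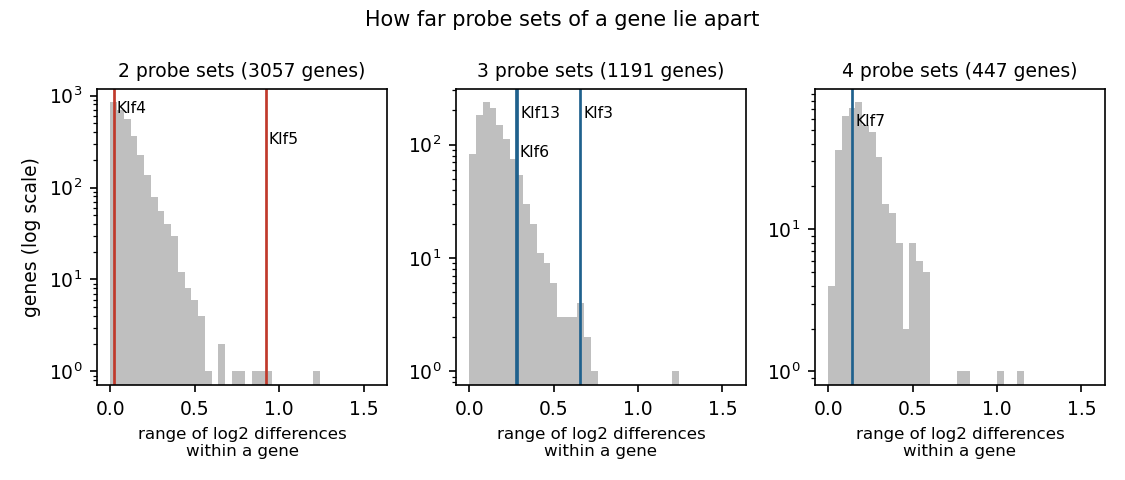
Histograms of the range of log2 differences between probe sets of 1 gene, for genes with 2, 3 and 4 probe sets, with a log axis for the number of genes; coloured lines mark Klf genes. Klf5 at 0.92 and Klf3 at 0.65 lie in the right tails, and Klf4 at 0.02 lies at the left edge.

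Relatives outside the 10 genes showed little. Klf1, Klf12, Klf16 and Klf17 have 1 probe set each and differed by 0.03, 0.06, 0.03 and 0.01; only Klf16 lay above the floor. The Sp factors, which share the zinc finger type, had 9 probe sets of 6 genes, with 0 past 1.5-fold and a median of 0.00. Of all probe sets 0.819% were 1.5-fold lower and 0.265% higher, so that count lies near the general share. Sp5, a Wnt target, differed by -0.12, and Sp1, the general GC box factor, by 0.09 on its brighter and -0.11 on its second probe set. Sp3 differed by -0.03 and Sp7 by -0.01.

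Genes of pathways known to act upstream of the self-renewal members, pathway outputs included, were mostly level. For these lists each gene is read on its brightest probe set, and of all 7269 genes above the floor 1.62% passed 1.5-fold downwards and 0.578% upwards. In the LIF and STAT3 list 1 of 10 genes above the floor was 1.5-fold lower and 0 higher, with a median of -0.03. That gene was Pim1, a kinase gene that LIF induces, at -0.76 and -0.73 on its probe sets. Other genes of the list differed less. Lifr, the LIF receptor, differed by 0.23 but by 0.05 on its second probe set, Jak1 by -0.20 and Pim3 by -0.23. Stat3 differed by 0.05 and Socs3, another gene that LIF induces, by 0.11 (-0.04 on its second probe set); both were chosen after their values were seen. In the ERK5 and MEF2 list, the route that induces Klf2 in endothelium, 0 of 6 genes passed 1.5-fold. Map2k5, the kinase above ERK5, differed by -0.40 but by -0.11 on its second probe set, and Mef2b by -0.32. Mef2d differed by 0.11 but by -0.19 on its second probe set, and Map3k3 by -0.07. In the FGF and ERK list 1 of 12 genes was 1.5-fold higher, the growth factor gene Fgf4, at 0.61 and 0.34 on its brightest 2 probe sets; with the mean of its probe sets it stood at 0.30 and did not pass. Map2k2 differed by -0.16, Map2k1 by 0.13 and the receptor gene Fgfr1 by -0.09.

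Genes listed as naive targets and partners of the self-renewal members had no common direction. Binding to these genes was not measured here. Of 15 naive and core pluripotency genes above the floor 1 was 1.5-fold lower and 0 were 1.5-fold higher, with a median of 0.00. Of all genes above the floor 1.62% passed downwards and 0.578% upwards. Tfcp2l1, a naive factor induced by LIF, differed by -0.65, but by -0.07 on its second probe set. Esrrb, a nuclear receptor of the naive state, differed by -0.24 and -0.21. Mycn stood at 0.43 and Dppa3 at 0.39. Nanog differed by -0.02, Pou5f1 by 0.10 and Sox2 by -0.17.

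Epithelial and smooth muscle genes that KLF4 or KLF5 is known to regulate were lower in larger number. Of 15 genes above the floor 7 were at least 1.5-fold lower, against 1.62% of all genes above the floor. At least 2-fold lower were 2 of them, against 0.179%. At least 1.5-fold higher were 0, against 0.578%, and the median was -0.50. Krt18, a keratin of simple epithelia, read 11.14 in vector cells and 9.82 in shDAB2 cells, a difference of -1.32. Anxa3, an annexin gene, read 9.20 and 8.08, a difference of -1.12. Tagln, an actin-binding gene of smooth muscle, read 10.11 and 9.13, a difference of -0.98, and Krt19 read 9.38 and 8.49, a difference of -0.90. Not all of the list did so: Epcam, Cdkn1a and Ccnd1, chosen after their values were seen, differed by 0.04, -0.01 and 0.35. Probes for keratin genes may also match processed pseudogenes. This list was assembled with results of these arrays known, so its count is no independent evidence of its direction.

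**Figure D5:**
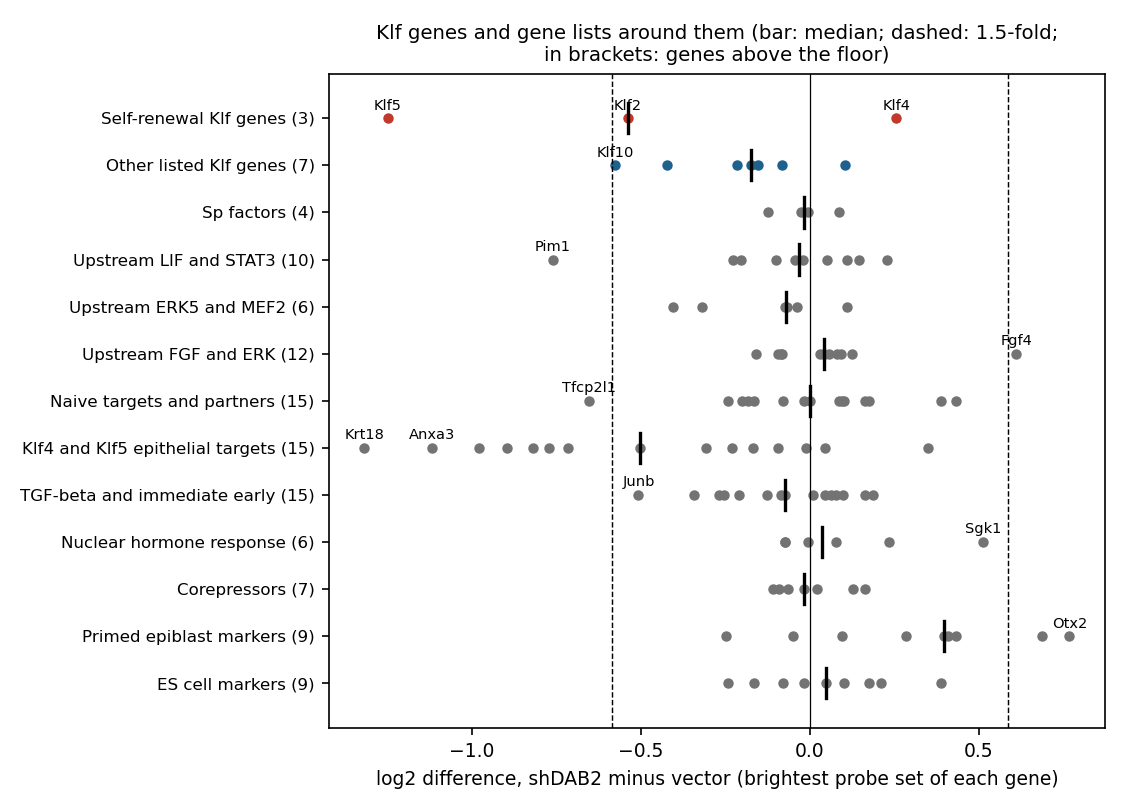
Log2 difference (shDAB2 minus vector) of the genes above the floor in the Klf groups and 11 lists around them, 1 point per gene on its brightest probe set, with the median as a bar and dashed lines at 1.5-fold. Klf5 lies at -1.25 and Klf4 at 0.26, and the epithelial list has the lowest median of the 11, at -0.50.

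Lists around inducers of the other members held no gene above the floor past 1.5-fold. Of all such genes 1.62% passed downwards and 0.578% upwards, so this lies near the general share. In the TGF-beta and immediate early list, which covers inducers of Klf10 and genes induced together with Klf4, Klf6 and Klf10, 0 of 15 genes passed 1.5-fold and the median was -0.07. The AP-1 genes Junb and Jun differed by -0.51 and -0.34, Smad4 by -0.27 and Tgfb1 by -0.26. On its second probe set Jun differed by -0.10, and Junb has 1 probe set. In the hormone response list, for Klf9 and Klf15, 0 of 6 passed, with a median of 0.04. The kinase gene Sgk1 stood at 0.51, Nr3c1 (the glucocorticoid receptor) at 0.23, Fkbp5 at 0.08 and Rxra at -0.07.

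In the lists of cofactors and turnover enzymes of the family 0 of 16 genes passed 1.5-fold. Of all genes above the floor 1.62% passed downwards and 0.578% upwards, so this count lies near the general share. Among corepressor genes Sin3a differed by 0.16, Hdac1 by 0.13, Sin3b by -0.11 and Ctbp1 by -0.09 (median -0.02 over 7 genes). Among coactivator genes Wdr5 differed by 0.25, Crebbp by -0.05 and Kat2b by 0.01 (median 0.01 over 3 genes). Among enzymes that act on Klf protein stability Usp10 differed by 0.15, Btrc by -0.15, Usp21 by -0.08 and Wwp1 by 0.07 (median -0.02 over 6 genes). Btrc and Wwp1 had the other sign on their second probe sets, at 0.10 and -0.07. Endothelial targets of KLF2 were mostly below the floor, and the 2 above it, Edn1 and Nos3, differed by -0.15 and -0.07. Of the metabolic targets 2 lay above the floor, Bcat2 at 0.17 and Prodh at -0.15.

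Cell type markers were read beside these differences. Of 10 embryonic stem cell markers 9 lay above the floor, all but Fut4. The summed signal of all 10 on the linear scale was 10537 in vector cells and 10600.1 in shDAB2 cells. Such a sum weighs the brightest probe sets most, here Dppa5a at 12.37 in vector cells and 12.29 in shDAB2 cells. It is no measure of how many cells are of a type. In that list Dppa4 differed by 0.39, Esrrb by -0.24, Utf1 by 0.21 and Zfp42 by 0.17, with a median of 0.05. Of 10 primed epiblast markers 9 lay above the floor, 7 of them higher and 2 lower, where 3636 of all 7269 genes above the floor were higher. At least 1.5-fold higher were 2, against 0.578% of genes, and 0 were 1.5-fold lower, against 1.62%. Of these 2, Dnmt3a did not pass with the mean of its probe sets. The list had a median of 0.40 (0.22 with the mean of all probe sets of each gene) and a summed signal of 1826 in vector cells and 2309 in shDAB2 cells. Otx2 stood at 0.77, Dnmt3a at 0.69 (0.22 with the mean of its probe sets), Sox4 at 0.43 (0.06 on its second probe set) and Cdh2 at 0.41. The lower ones were Tead2 at -0.25 and Sox11 at -0.05, and Fgf5 stood at 0.10.

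Markers of other cell types were mostly below the floor, and summed signals again cover every measured marker of a list. Bright genes weigh most in these sums, as Tagln does in that of the fibroblast list. Of 9 trophectoderm markers 2 were above it, Tfap2c at -0.47 and Hand1 at -0.02, and the summed signal was 930 in vector cells and 868 in shDAB2 cells; Cdx2, Eomes and Elf5 lay below the floor. Of 10 primitive endoderm markers 4 were above it, Sparc at -0.40, Dab2 at -0.31, Col4a1 at -0.29 and Lama1 at 0.13, with summed signals of 1612 and 1394 in the same order. Gata4, Gata6 and Sox17 lay below the floor. The 5 of 11 fibroblast markers above it included Tagln, Fn1 at -0.59, Vim at 0.31 and Acta2 at -0.13. On their second probe sets Fn1 stood at -0.23, Vim at 0.10 and Acta2 at 0.02. The summed signals of the list were 3223 and 2496, and Col1a1, Col1a2 and Thy1 lay below the floor. Blood and endothelial markers had 2 of 9 above it, Pecam1 at -0.25 and Runx1 at 0.09 (-0.09 on its second probe set). The summed signals of that list were 768 and 786. Neural markers had 5 of 8 above it, Nefl at 0.86, Nefm at 0.28, Tubb3 at 0.14, Stmn2 at -0.09 and Nes at -0.08, with summed signals of 1594 and 1774. The part of any of these in the Klf differences was not tested.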

How the data were processed

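RNA of 2 clones of E14tg2a cells was hybridised to 1 Affymetrix mouse 430A array each. The authors deposited log2 expression values of the probe sets, made with RMA per the submitters' processing notes. The RMA version and the set of arrays normalized together were not given in the sources used here. Log base 2 was inferred from the range of the values. The number of arrays limits the precision, and no detection calls were at hand. Of 22626 probe sets, 20380 had 1 gene in the platform annotation, 691 several and 1555 none; only the first were used. Gene IDs of 20351 matched RefSeq (GRCm38.p6), which changed 0 symbols.

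The difference between arrays was computed with no test, since each group holds 1 array. The SD and percentile of like signal came from the 500 probe sets nearest in mean signal. Calls used 1.5-fold (0.58 on the log2 scale) and 2-fold, and the procedure was tested on simulated data. Of the 23 gene lists, the text names up to 4 genes each with the largest absolute difference above the floor, all 10 Klf genes, and Pou5f1, Sox2, Nanog and Dab2. Other genes named (Stat3, Socs3, Epcam, Cdkn1a, Ccnd1, Tead2, Sox11, Fgf5, Nes, Dppa5a and the markers named as below the floor) were chosen after their values were seen. The members and lists were chosen with earlier results of these data known. Alternatives were cyclic loess and quantile normalization (limma 3.58.1 in R 4.3.3), centring, the choice of probe sets, the floor and the fold limit. Figures used matplotlib 3.10.9 in Python 3.11.15.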

Additional observations from a re-analysis of the deposited data

How the results depend on the processing

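Cyclic loess, centring on the median difference and quantile normalization moved the 27 Klf differences by at most 0.04, and 0 of 81 such values changed sign. Cyclic loess and centring each raised the Klf probe sets at least 1.5-fold lower from 2 to 3, the added one being that of Klf10. The choice of probe sets mattered more. Reading each gene on its brightest probe set, or on the mean of its probe sets, gave 1 gene at least 1.5-fold lower (Klf5, at -1.25 or -0.79) and 8 lower by any amount. It moved the self-renewal median to -0.54 and its gap to the other members to -0.37, in both cases. These counts are of 10 genes and not of 27 probe sets. With IDs of the types _s_at, _x_at and _a_at left out, a choice for the Klf counts made after seeing the data, 0 Klf probe sets passed 1.5-fold. The self-renewal median was then -0.046 and its gap to the others turned to 0.076. That setting removes the brighter Klf5 and the lowest Klf3 probe set. The mean of all probe sets gave -0.23 for Klf3 and -0.29 for Klf6. It cut the 1.5-fold higher genes of the surrounding lists from 4 to 2, without Fgf4 and Dnmt3a. The 1.5-fold lower genes of these lists fell from 10 to 8, without Tfcp2l1 (-0.25) and Fn1 (-0.41). By construction a 2-fold limit left 1 Klf probe set, 2 of the 10 lower genes of the surrounding lists, and 2 of the 7 in the epithelial list; for the Klf probe sets this limit was chosen after seeing the data. The number of Klf genes with 1 sign on all probe sets stayed at 4 under the other normalizations, which were tried after seeing the data. With probe sets above the floor only it was 5, where 69.4% of 2502 genes with at least 2 such probe sets had 1 sign. No paired analysis was possible because each group holds 1 array. Signal near the floor limits the differences that Klf7, Klf15 and the dimmer Klf5 and Klf9 probe sets can show.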
